A study of Mus musculus with 2 samples.

Results

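The mRNAs described here encode 10 proteins of the nucleolus and the Cajal body, namely Fbl, Nop56, Nop58, Ncl, Npm1, Nolc1, Nop10, Nhp2, Gar1 and Coil. They were chosen by gene symbol, and they are 10 of the 24115 gene symbols listed and hold 32 of the 48876 Ensembl transcripts. The RNA came from enChIP, in which a tagged DNA-binding protein is crosslinked to chromatin with formaldehyde, the chromatin is sheared and the complexes are pulled down with anti-FLAG M2 antibody. Both isolates were made from Ba/F3, a mouse hematopoietic cell line whose strain is labelled C3H. One isolate came from cells expressing 3xFN-Tel-TAL, a FLAG-tagged TAL protein with a nuclear localization signal that recognizes telomere repeats, and the control isolate came from cells expressing 3xFNLDD, a tagged LexA protein. There was 1 library for each condition, so no difference below has a replicate check and no p-value is given. The libraries hold RNA recovered with chromatin, not total RNA of the cells, so the amount of an mRNA in the cells and the amount of it recovered cannot be told apart.

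As background, ribosomal RNA is made and processed in the nucleolus, where small nucleolar RNAs guide chemical modification of the precursor. Box C/D small nucleolar RNAs work with fibrillarin (Fbl), Nop56, Nop58 and Nhp2l1, and guide methylation of ribose. Box H/ACA small nucleolar RNAs work with dyskerin (Dkc1), Nop10, Nhp2 and Gar1, and guide formation of pseudouridine, and the same proteins bind the telomerase RNA. Cajal bodies, which are organized by coilin (Coil), are sites of maturation of small nuclear and nucleolar ribonucleoproteins.

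The 3xFNLDD library held 7206183 reads and the 3xFN-Tel-TAL library 9774844, so that 3 reads equal 0.416 and 0.307 RPM, the reads of an RNA scaled to the library total. The 11 RNAs above 1% of either library took 84.8% of the reads with 3xFNLDD and 81.1% with 3xFN-Tel-TAL. For 5931 genes the libraries held 100 reads or more between them. The median of their log2 ratios of RPM (3xFN-Tel-TAL over 3xFNLDD) was 0.41, and 42.8% of these genes lay above 1.4-fold while 5.83% lay below 1/1.4. TMM scaling, which centres the libraries on most genes, lowers every log2 ratio by 0.33. Each ratio below is therefore also read against this median gene. Of the 8 hematopoietic markers checked, 7 were listed. Their log2 ratios ran from -0.26 (-0.41 to -0.12) for the cytokine receptor subunit Csf2rb2, with 751 reads with 3xFNLDD and 849 with 3xFN-Tel-TAL, to 1.56 (0.78 to 2.42) for the interleukin-3 receptor subunit Il3ra, with 17 and 68. The 5 markers of other cell types that were listed each had under 20 reads.

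In Nop56, 1 of 12 listed transcripts took a larger share of the gene's reads with 3xFN-Tel-TAL, beyond the counting error of both libraries. The transcript is ENSMUST00000143547, annotated as a target of nonsense-mediated decay, the pathway that degrades mRNAs with an early stop codon. On NCBIM37 it lies on the + strand at chr2:130102333-130103695, with 4 exons and 600 nt, and it was singled out after the values were seen. Other Nop56 transcripts also took larger shares with 3xFN-Tel-TAL, with intervals that overlap. How many transcripts of all genes have shares whose intervals do not overlap was not counted, so this difference does not set Nop56 apart. Both sequences below start at the same base of exon 6 of the full-length transcript ENSMUST00000103198 and show where the transcripts part. Lower case marks the 27 shared bases and capitals mark the 29 bases that follow. In ENSMUST00000143547 the capitals are read from intron 6 and end in the stop codon TAA, and in ENSMUST00000103198 they are the start of exon 7.
ENSMUST00000143547: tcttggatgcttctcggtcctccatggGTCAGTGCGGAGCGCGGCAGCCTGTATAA
ENSMUST00000103198: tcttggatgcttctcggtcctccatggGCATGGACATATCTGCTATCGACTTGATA
The first run is chr2:130102333-130102388 and the second ends at position 130102471.

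ENSMUST00000143547 had 8 reads with 3xFNLDD and 56 with 3xFN-Tel-TAL, and its log2 ratio was 2.37 (95% interval 1.29 to 3.65). As a share of all Nop56 reads it was 3.64% (1.58 to 7.04) with 3xFNLDD and 15.4% (11.8 to 19.5) with 3xFN-Tel-TAL, and these intervals do not overlap. A share within a gene does not depend on how the libraries are scaled. The intervals here and below are exact Clopper-Pearson intervals, and they cover counting error only, since amplified reads were not traced to single molecules. Of 16468 transcripts with 20 reads or more over both libraries, this transcript was number 172 by the lower bound of its ratio. It was also the single one of the 17 transcripts of these genes with at least 20 reads whose lower bound lay above 1.4, against 9.90% of all 16468. That count does not set these genes apart.

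The most-read Nop56 transcripts had lower ratios. The full-length ENSMUST00000103198, with 12 exons and 1877 nt, had 63 reads with 3xFNLDD and 84 with 3xFN-Tel-TAL, a log2 ratio of -0.02. ENSMUST00000028890, which covers the last exons, had 86 and 119 reads and a log2 ratio of 0.03. Both lay below the median gene, but their intervals (-0.51 to 0.47 and -0.38 to 0.45) hold it. The retained-intron transcripts ENSMUST00000150745 and ENSMUST00000133351 had log2 ratios of 0.16 (33 and 50 reads) and -0.67 (20 and 17 reads). Transcripts with fewer reads also included higher values, with wide intervals. ENSMUST00000146454 had 7 and 18 reads (log2 ratio 0.92, -0.40 to 2.42) and the retained-intron transcript ENSMUST00000160976 had 2 and 6 (1.15, -1.34 to 4.49). The retained-intron transcript ENSMUST00000138163 had 0 and 8 reads, and the lower bound of its log2 ratio was 0.33. With all transcripts but ENSMUST00000143547, Nop56 had 212 and 308 reads and a log2 ratio of 0.099 (-0.16 to 0.36). Leaving out a transcript picked after its high value was seen was bound to lower the ratio. This value is therefore not set against the median gene. The interval of the whole gene (0.041 to 0.53) holds the median gene at 0.41.

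How reads shared by transcripts were assigned is not given in the sources used here, and it bears on this value. Of the 600 bases of ENSMUST00000143547, 388 are also exonic in ENSMUST00000103198, and of the 212 others 30 run past the end of exon 6 and 182 past the end of exon 8. ENSMUST00000143547 holds none of the 152 bases of exon 7 of ENSMUST00000103198. No base of it is absent from every other listed Nop56 transcript, and 418 are shared with ENSMUST00000028890. Of transcripts annotated as nonsense-mediated decay, 262 had at least 20 reads. Their median log2 ratio was 0.43 beside 0.39 for all transcripts tested, and 45.0% lay above 1.4-fold beside 44.2%.

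**Figure D1:**
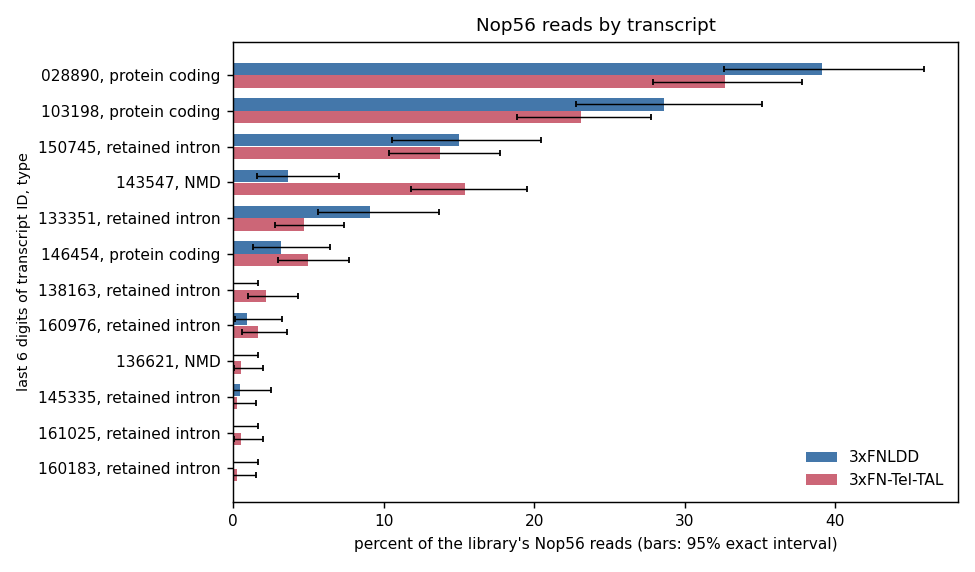
Percent of the Nop56 reads of each library listed under each of its 12 transcripts, named by the end of the Ensembl ID and the annotated type, with exact 95% intervals as lines. ENSMUST00000143547 takes 3.64% with 3xFNLDD and 15.4% with 3xFN-Tel-TAL, with intervals that do not overlap. It was singled out after the values were seen.

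Summed over its transcripts, Nop56, a core scaffold of the box C/D particle, had 220 reads (30.5 RPM) with 3xFNLDD and 364 (37.2 RPM) with 3xFN-Tel-TAL. The log2 ratio was 0.29 (0.041 to 0.53), and -0.040 with TMM scaling. Its paralog Nop58 had 33 reads (4.58 RPM) and 88 (9.0 RPM), a log2 ratio of 0.98 (0.38 to 1.60). This was the higher of the pair, and the interval of Nop58 stayed above 0 with TMM scaling (0.65, 0.056 to 1.27) though it holds the median gene. Fbl, the methyltransferase, had 15 reads (2.08 RPM) and 22 (2.25 RPM), a log2 ratio of 0.11 (-0.90 to 1.16) that is not distinguishable from no difference at this depth. Together the box C/D proteins had 268 and 474 reads, a log2 ratio of 0.38 (0.16 to 0.60).

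The mRNAs of box H/ACA proteins had few reads each, and none of their ratios was distinguishable from no difference. Nhp2, which binds the RNA, had 31 reads (4.30 RPM) and 46 (4.71 RPM), a log2 ratio of 0.13 (-0.56 to 0.84). Most Nhp2 reads, 30 and 40, were listed under a transcript annotated as a retained intron, whose log2 ratio was -0.025. Gar1, which helps release the modified RNA, had 26 reads (3.61 RPM) and 29 (2.97 RPM), a log2 ratio of -0.28 (-1.10 to 0.54), the lowest value among the 10 genes. Its retained-intron transcript had 6 and 0 reads, and its most-read transcript alone had 16 and 25 reads and a log2 ratio of 0.20. Nop10, a small protein that contacts the catalytic subunit, had 6 reads (0.833 RPM) and 16 (1.64 RPM), a log2 ratio of 0.98 (-0.45 to 2.62). All 3 intervals hold 0 and the median gene, and the sum of 63 and 91 reads gave 0.091 (-0.39 to 0.58).

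Among the nucleolar phosphoproteins, Ncl (nucleolin) was the most-read mRNA, with 368 reads (51.1 RPM) with 3xFNLDD and 579 (59.2 RPM) with 3xFN-Tel-TAL. Its log2 ratio was 0.21 (0.023 to 0.41). Relative to the median gene this was -0.20 (-0.39 to -0.005), so Ncl was the single gene of the 10 whose interval lay below it. The medians of genes with at least 20 or at least 500 reads, 0.37 and 0.36, lie inside the interval of Ncl. Npm1 (nucleophosmin), a histone and ribosome chaperone, had 121 reads (16.8 RPM) and 196 (20.1 RPM), a log2 ratio of 0.26 (-0.078 to 0.60). Nolc1, which moves between the nucleolus and Cajal bodies and binds both classes of small nucleolar ribonucleoprotein, had 86 reads (11.9 RPM) and 206 (21.1 RPM). At a log2 ratio of 0.82 (0.45 to 1.20) it lay 0.41 (0.039 to 0.79) above the median gene, the single gene of the 10 whose interval lay above it, and with TMM scaling its log2 ratio was 0.49 (0.12 to 0.87). How many of all genes have an interval that clears the median gene was not counted, so neither Nolc1 nor Ncl is set apart. Coil, the marker of Cajal bodies, had 22 reads (3.05 RPM) and 28 (2.86 RPM), a log2 ratio of -0.092 (-0.95 to 0.78).

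**Figure D2:**
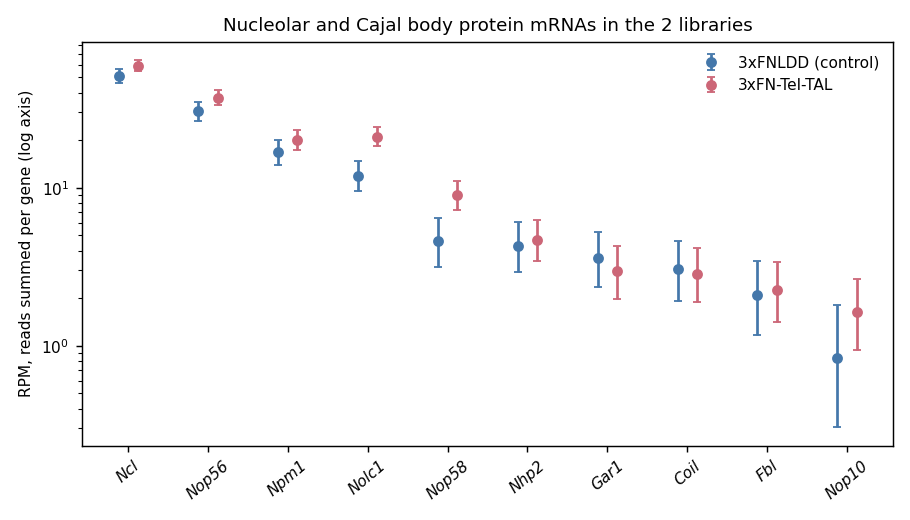
RPM of each of the 10 mRNAs in the 3xFNLDD and 3xFN-Tel-TAL libraries on a log axis, with exact 95% intervals. Ncl is highest in both libraries (51.1 and 59.2 RPM) and Nop10 lowest (0.833 and 1.64 RPM).

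**Figure D3:**
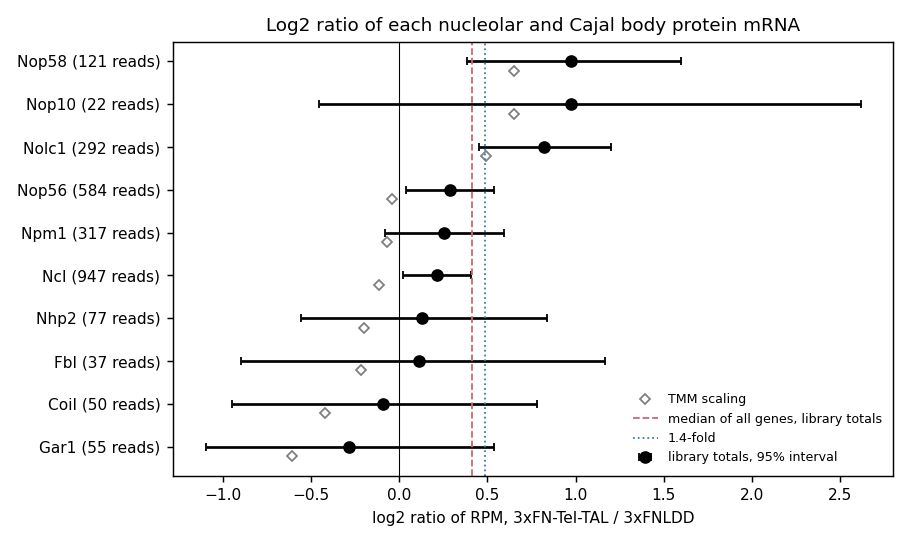
Log2 ratio of RPM, 3xFN-Tel-TAL over 3xFNLDD, for each of the 10 mRNAs, with exact 95% intervals, the value with TMM scaling as an open diamond, the median gene at 0.41 as a dashed line and 1.4-fold as a dotted line. The interval of Nolc1 (0.45 to 1.20) lies above that median, and the interval of Ncl (0.023 to 0.41) ends just below it. How many intervals of all genes clear the median was not counted.

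Counted together, 2 of the 5 genes with at least 100 reads (Nolc1 and Nop58) lay above 1.4-fold, beside 42.8% of all genes with as many reads, and 0 lay below 1/1.4. With at least 20 reads all 10 were counted, and 3 (with Nop10) lay above, beside 41.1% of 12515 genes, and 0 below, beside 11.5%. With TMM scaling the count of the 5 was again 2 above and 0 below, beside 19.6% and 13.0% of all genes. Over all 10 it was 3 above and 1 below (Gar1), beside 22.1% and 20.8% of the 12515 genes. The lower bound lay above 1.4 for 0 of the 5, beside 14.8% of all genes. The interval lay above 0 for 4 of the 10 (Nop56, Ncl, Nop58 and Nolc1), beside 34.3% of the 12515 genes. With TMM scaling it lay above 0 for 2 of the 10 (Nop58 and Nolc1), beside 15.5%. These shares do not set the 10 mRNAs apart from other genes. The log2 ratio was above 0 for 8 of the 10 with library totals and for 3 of the 10 (Nop58, Nolc1 and Nop10) with TMM scaling, beside 72.8% and 52.6% of the 12515 genes. Their median log2 ratio was 0.29 over the 5 genes and 0.24 over all 10, where the medians of all genes were 0.41 and 0.37. The reads of all 10 summed to 928 (128.8 RPM) and 1574 (161.0 RPM), a log2 ratio of 0.32 (0.20 to 0.44), and to -0.005 (-0.12 to 0.11) with TMM scaling. Ncl alone held 39.7% and 36.8% of these reads, and without it the log2 ratio of the sum was 0.39 (0.24 to 0.54). Leaving out ENSMUST00000143547 instead, which was singled out after its value was seen, gave 0.28 (0.16 to 0.40).

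**Figure D4:**
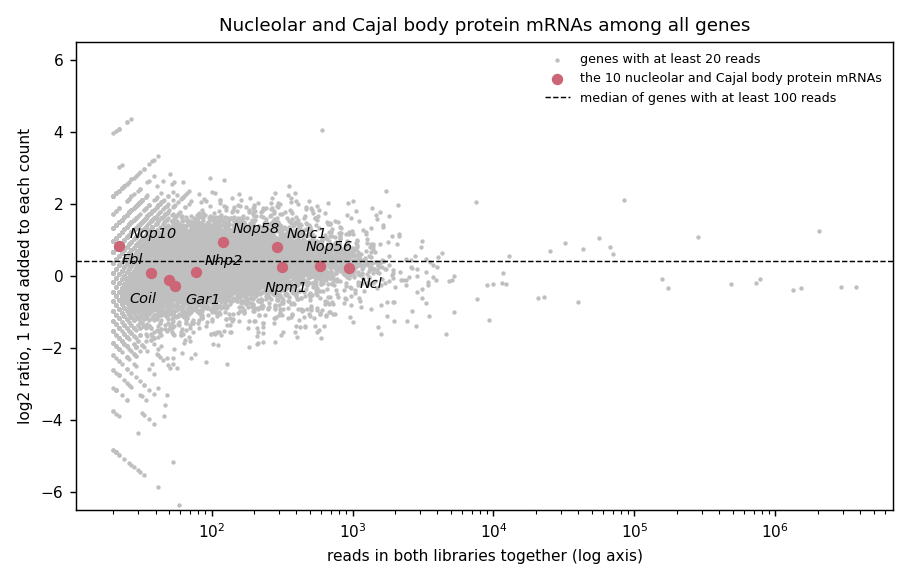
Log2 ratio of RPM (1 read added to each count) against the reads in both libraries together on a log axis, for the 12515 genes with at least 20 reads. The 10 mRNAs, marked in colour, lie on both sides of the dashed line, which is the median of the genes with at least 100 reads (0.41).

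Levels of different genes were compared per length, as RPKM, which is RPM per kilobase of transcript, summed over annotated transcripts. Nop56 was highest (25.0 RPKM with 3xFNLDD and 36.3 with 3xFN-Tel-TAL), followed by Npm1 (14.0 and 17.1) and Ncl (6.18 and 7.17). The intervals of these 3 neighbours did not overlap in either library, while those of all neighbours further down did. These intervals scale the counting error of a gene's summed reads. They leave out the lengths used and how reads were assigned among transcripts, so they do not settle the order. Short partial transcripts raise the value of Nop56, and the listed Ncl transcript is 8257 nt long, of which 2124 nt are coding, which lowers the value of Ncl. At the other end, Nop10 had 0.751 and 1.48 RPKM and Coil 1.20 and 1.12.

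Some of these genes have near-identical copies elsewhere in NCBIM37, which could take or give reads. At 90% identity or more over at least 80% of the coding sequence, 4 copies were found for Npm1, and 1 each for Fbl, Nop10 and Nhp2. The other 6 genes had 0. The search used the coding sequence of 1 transcript per gene, so copies of the rest of a transcript were not sought. The 3 listed transcripts that overlap copies of Npm1 had 8 and 9 reads in all, beside the 121 and 196 reads of Npm1. The copy of Fbl lies in exons of 7 listed transcripts that had 178 and 301 reads in all, beside the 15 and 22 reads of Fbl, and how many of those reads fall in the copy is not known from counts per transcript. How reads matching several places were treated is not given in the sources used here, and the values of Npm1, Fbl, Nop10 and Nhp2 are uncertain for that reason too.

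Small nucleolar RNAs are often cut from introns of genes such as these. The annotation places 11 in introns of Ncl, Nop56 and Nop58, of which 4 were listed. SNORA51 in Nop56, listed as Gm24451, had 8 reads with 3xFNLDD and 21 with 3xFN-Tel-TAL, a log2 ratio of 0.95 (-0.28 to 2.34). It overlaps exons of the Nop56 transcripts ENSMUST00000160183 and ENSMUST00000160976. The other 3 listed had at most 8 reads in both libraries together, too few for a ratio, and none of the 11 overlaps an exon of ENSMUST00000143547.

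Promoters were read from the RefSeq table (GRCm38.p6, 250 bases before to 50 after the start), which matched 8 of the 10 genes, all but Fbl and Npm1. The E-box CACGTG, the letters that Myc proteins are known to bind, was in 0 of the 8, beside 7.15% of 32851 promoters. The ETS core CCGGAA, or TTCCGG on the other strand, was in 4 of the 8, beside 14.9% of all promoters. Both genes above 1.4-fold with at least 100 reads, Nop58 and Nolc1, are among the 4, and a link of the motif to the ratio was not tested. The stretches of all 4 genes that hold it are shown, with the motif in capitals.
Nop58, chr1:59684863-59684902, + strand: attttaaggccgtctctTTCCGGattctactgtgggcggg
Nop58, chr1:59684892-59684931, + strand: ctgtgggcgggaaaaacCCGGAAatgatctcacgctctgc
Nolc1, chr19:46075816-46075855, + strand: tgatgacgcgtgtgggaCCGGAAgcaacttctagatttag
Nhp2, chr11:51619733-51619772, + strand: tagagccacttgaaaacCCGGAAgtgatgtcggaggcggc
Gar1, chr3:129831416-129831455, - strand: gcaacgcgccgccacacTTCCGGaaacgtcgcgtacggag
The other holders, Nhp2 and Gar1, had log2 ratios of 0.13 and -0.28, so the motif was held by Nop58, whose ratio Nop10 alone equalled among the 10, and by Gar1, whose ratio summed over transcripts was the lowest. In the Gar1 stretch the bases just after the capitals also complete CCGGAA, which overlaps the marked match. A match of letters is a description of the sequence, not a binding site.

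The partner genes of these proteins were taken from 6 lists of box C/D and H/ACA assembly, nucleolar chaperones, Cajal body, RNA polymerase I and pre-rRNA processing genes. Without the 10 mRNAs, 97 genes of the lists were listed and 57 had at least 100 reads. Of these, 15 (26.3%) lay above 1.4-fold and 0 lay below 1/1.4, beside 42.8% and 5.83% of all genes, and their median log2 ratio was 0.32. With TMM scaling 6 lay above and 7 below, beside 19.6% and 13.0% of all genes, and the median was -0.007. The lower bound lay above 1.4-fold for 2 of the 57, Ubtf and Imp4, beside 14.8% of all genes.

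By list, 3 of the 6 box C/D genes tested lay above 1.4-fold, Nop58 among them. Nufip1, an assembly factor, had 30 and 73 reads (log2 ratio 0.84), and Nhp2l1, the core protein that binds the RNA first, had 62 and 65 (-0.37). Of the 2 box H/ACA genes tested, the pseudouridine synthase Dkc1 had 102 and 196 reads (0.50, 0.15 to 0.86) and the assembly factor Naf1 had 64 and 94 (0.11). Among 8 nucleolar chaperones and GTPases 3 lay above, Nolc1 among them, and outside the 10 mRNAs the values ran from Nop2, an rRNA methyltransferase (83 and 84 reads, -0.42), to Gnl3l, a nucleolar GTPase (213 and 420 reads, 0.54). Tcof1, which links RNA polymerase I to pre-rRNA processing, had 109 and 167 reads (0.18).

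Of 11 Cajal body and SMN complex genes, 3 lay above 1.4-fold. Tgs1, which makes the cap of small nuclear RNAs, was highest, with 32 and 90 reads (log2 ratio 1.05, 0.46 to 1.68). Gemin5, which recognizes small nuclear RNAs, was lowest, with 93 and 104 reads (-0.28). Wrap53, which carries telomerase RNA to Cajal bodies, had 16 and 28 reads (0.37), and Smn1 had 8 and 17 (0.65), below the 100 reads set for the lists. Of 7 RNA polymerase I genes 2 lay above, and Ubtf, which opens ribosomal DNA for transcription, was highest with 137 and 326 reads (0.81, 0.52 to 1.11), while Taf1d was lowest with 66 and 73 (-0.29). Of 28 pre-rRNA processing genes 5 lay above, from Utp20 (70 and 71 reads, -0.42) to Imp4 (20 and 86 reads, 1.66, 0.95 to 2.45), both components of the small-subunit processome.

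**Figure D5:**
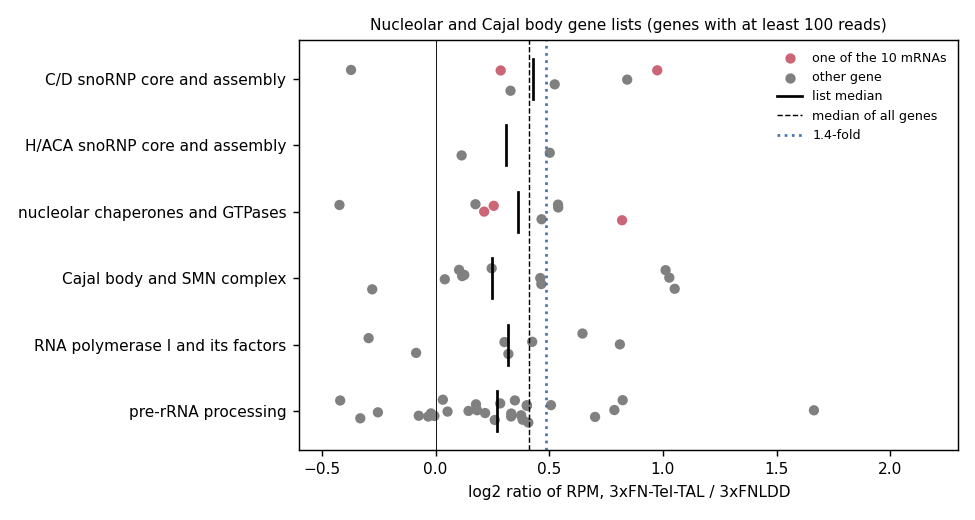
Log2 ratio of RPM, 3xFN-Tel-TAL over 3xFNLDD, of the genes with at least 100 reads in 6 lists. Coloured points are genes among the 10 mRNAs, black bars are list medians (0.25 to 0.43), the dashed line is the median of all genes at 0.41 and the dotted line is 1.4-fold.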

How the data were processed

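RNA of the enChIP isolates from 3xFN-Tel-TAL and 3xFNLDD cells was prepared with the Illumina TruSeq RNA kit from 60 ng of total RNA. The values the authors deposited are raw read counts per Ensembl transcript and, beside them, RPM, the count scaled to the library total. RPM recomputed from the counts differed by rounding only. The submitters' processing notes name cutadapt, GRCm38 and mm10. The aligner, the annotation, the strand setting and the treatment of reads matching several places are not given in the sources used here.

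Counts were summed over all transcripts of a gene symbol, leaving out 193 rows under clone names. Log2 ratios of RPM carry exact 95% Clopper-Pearson intervals, with no pseudocount (Python 3.11.15, pandas 2.3.3, scipy 1.17.1). Counts above 1.4-fold were made over genes with at least 100 reads in all, and values of transcripts over those with at least 20. Types, exons and NCBIM37 positions came from GENCODE M1, which holds 45887 of the 48876 transcripts. Copies were sought with minimap2 2.31. Results were recomputed with TMM (edgeR 4.0.16, R 4.3.3), totals without RNAs above 1% of either library, the most-read transcript, a pseudocount of 1, other read minimums, a fold of 2 and the lower bound. A protein-coding background and the sum without Ncl were chosen after seeing the data. Scripts were tested on simulated data. Named genes are the 10 mRNAs, the highest and lowest gene of each list, and Dkc1, Wrap53, Tcof1, Smn1 and Ubtf. The 10 mRNAs and the lists were chosen with earlier results of these data known.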

Additional observations from a re-analysis of the deposited data

How the results depend on the processing

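No paired analysis was possible because each condition has 1 library, and for the same reason no replicate could be left out. Of the 8 mRNAs with a log2 ratio above 0, 5 turned below 0 with TMM scaling and with totals without RNAs above 1% of either library. Nop56 and Ncl, whose intervals had lain above 0, became -0.040 and -0.11 with the first and -0.029 and -0.10 with the second, and Fbl, Npm1 and Nhp2 became -0.21, -0.071 and -0.20 with the first and -0.20, -0.060 and -0.19 with the second. The sum of the 10 became -0.0046 and 0.0064 under the same scalings, and the median of the 5 genes with at least 100 reads -0.040 and -0.029. Both scalings lower all genes alike, by 0.33 and 0.32. The count above the fold was 0 of 5 in place of 2 of 5 with a fold of 2 and with the lower bound, beside 12.0% and 14.8% of all genes. With at least 500 reads it was 0 of 2, since Nolc1 and Nop58 have fewer, beside 37.0%. Among the partner genes it was 6 of 57 with TMM scaling and 7 of 57 without the RNAs above 1%, in place of 15 of 57, beside 19.6% and 20.2% of all genes, and 1 of the 3 with at least 500 reads. With a pseudocount of 1 all 10 ratios moved by less than their counting interval, and with the most-read transcript 9 did, while Nop56 became 0.029. Within those intervals, the most-read transcript turned Gar1 from -0.28 to 0.20 and Nhp2 from 0.13 to -0.025. Intervals were too wide to show a difference of 1.4-fold for Fbl, Nop10, Nhp2, Gar1 and Coil at their depth. The interval of Nop58, though above 0 with library totals, also reached further below its value than a 1.4-fold difference.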
